A study of Rattus norvegicus with 12 samples.

Results

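Transition proteins and protamines are the small basic proteins that replace histones while the nucleus of a spermatid condenses. Their genes were examined in rat testis as the markers of the study's spermatogenic marker table whose rat symbol begins with Tnp or Prm. The rule found 3 genes, Tnp1 (transition protein 1), Tnp2 (transition protein 2) and Prm3 (protamine 3), among 575 markers that could be matched to the deposited transcripts and 31519 features in all. Each matched a single Ensembl transcript, ENSRNOT00000023769.4 (409 bases) for Tnp1, ENSRNOT00000003455.5 (553 bases) for Tnp2 and ENSRNOT00000003451.3 (515 bases) for Prm3. The genes of protamines 1 and 2, Prm1 and Prm2, are not in the marker table and were not analysed here.

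RNA was sequenced from 12 testes libraries of Sprague Dawley (SD) rats labelled as 8 weeks old, 3 each from a control group and from groups given restraint stress plus ice-water swimming (RS+IS) daily for 3, 14 or 21 days. According to the study's methods, control rats stayed free in their cages but went without food and water during the stress hours. The labels give 1 control group and no day on which it was sampled, and the same age for every group, so duration of stress and age at sampling cannot be told apart. The libraries are labelled as separate samples, and p-values measure the spread between them.

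When round spermatids elongate, most histones leave the DNA, transition proteins take their place, and protamines then replace the transition proteins and pack the DNA of the sperm head. Transcription stops during this condensation, so mRNAs of these genes are made earlier in round spermatids and stored until they are translated. The transcription factor CREM, acting at cAMP response elements, is a known activator of such haploid genes. Prm3 lies with the other protamine genes but encodes an acidic protein reported in the spermatid cytoplasm rather than on DNA.

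In the RefSeq annotation of the GRCr8 assembly, Tnp1 stands alone on chromosome 9, whereas Prm1, Prm2, Prm3 and Tnp2 follow each other as neighbouring protein-coding genes on chromosome 10. The promoters of the 3 genes are shown because CREM acts through the element TGACGTCA or its core TGACG, and because many tissue-specific promoters carry a TATA box, searched for as TATAA. Each sequence holds the 200 bases before the RefSeq start on GRCr8, taken from chr9:82044279-82044478 on the minus strand for Tnp1, chr10:5386535-5386734 on the plus strand for Tnp2 and chr10:5384194-5384393 on the plus strand for Prm3. Capitals mark a match on the printed strand to TGACGTCA or TATAA.
Tnp1: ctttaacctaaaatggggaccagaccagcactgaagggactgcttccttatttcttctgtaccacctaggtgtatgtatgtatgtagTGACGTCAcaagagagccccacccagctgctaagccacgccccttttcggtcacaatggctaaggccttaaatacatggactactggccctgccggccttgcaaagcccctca
Tnp2: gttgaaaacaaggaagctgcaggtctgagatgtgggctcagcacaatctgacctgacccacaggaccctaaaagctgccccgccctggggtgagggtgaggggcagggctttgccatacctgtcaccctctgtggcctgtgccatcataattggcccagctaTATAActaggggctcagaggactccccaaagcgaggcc
Prm3: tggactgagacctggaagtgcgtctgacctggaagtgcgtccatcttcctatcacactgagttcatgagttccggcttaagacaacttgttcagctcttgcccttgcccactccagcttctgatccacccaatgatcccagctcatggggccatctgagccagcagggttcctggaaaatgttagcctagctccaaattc
The Tnp1 promoter held TGACGTCA, whose first base lies 113 bases before the start, and this palindrome contains TGACG on both strands. TGACGTCA was found in 1.46% of 33469 RefSeq promoters of this length, searched on both strands. The Tnp2 promoter held TATAA 38 bases before the start, a motif found in 19.7% of promoters, and no TGACG, which was found in 15.9%. None of the 3 motifs was in the Prm3 window, which says only that these letters are absent there.

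Library totals lay between 23908048 and 29404590 estimated counts, and the 3 genes passed the filter on low counts in every comparison. Levels of different genes are compared only as TPM (counts per unit of effective length, scaled to an equal sum for every library). The tissue carried high levels of spermatid markers. Odf1, a protein of the sperm tail's outer dense fibres, lay between 3809 and 5461 TPM in all 12 libraries. The summed TPM of 5 spermatid markers (Hils1, Odf1, Akap4, Spem1 and Capza3) lay between 6431 and 7602 in the control group, between 6414 and 6910 after 3 days, between 7194 and 7918 after 14 days and between 7736 and 8674 after 21 days. That of 6 spermatocyte markers (Sycp3, Sycp2, Syce1, Ldhc, Hspa2 and Ccna1) lay between 2453 and 2582, 2590 and 2641, 2489 and 2497, and 2280 and 2381, in the same order of groups. Levels in whole testis depend on cell composition: fewer cells of a type and less RNA per cell cannot be told apart. Somatic cell markers have no names in the deposited tables and were not analysed here.

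Tnp1 was the second most abundant of 31715 transcripts in every library. In the control group it reached 16783, 21365 and 19216 TPM, and in the 3-day stress group 16938, 18282 and 17747 TPM. In the 14-day stress group the values were 23620, 21123 and 22791 TPM, and in the 21-day stress group 24156, 24615 and 24862 TPM. All 21-day libraries lay above all control libraries, and the 14-day group overlapped the control group on this scale only through its replicate 2, which lay below control replicate 2. The group means were 19121 ± 2292 TPM in the control group, 17656 ± 677 after 3 days, 22512 ± 1272 after 14 days and 24545 ± 358 after 21 days (SD, n = 3 each). Tnp1 thus made up between 1.68% and 2.14% of all TPM in control libraries and between 2.42% and 2.49% in 21-day libraries.

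Tnp2 was less abundant than Tnp1 and ranked between 4 and 13 of all transcripts. Its values were 4617, 5822 and 5748 TPM in the control group and 4989, 5302 and 5626 TPM after 3 days. After 14 days they were 6523, 6226 and 7729 TPM, and after 21 days 6436, 7774 and 6876 TPM. Every 14-day and 21-day library lay above every control and 3-day library. Means were 5395 ± 675 TPM in the control group, 5306 ± 318 after 3 days, 6826 ± 796 after 14 days and 7028 ± 682 after 21 days (SD, n = 3 each).

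Prm3 was the least abundant of the 3, with ranks between 80 and 121. It measured 1004, 1163 and 1110 TPM in the control group and 868, 1008 and 1083 TPM after 3 days. It measured 1142, 1133 and 1091 TPM after 14 days, all inside the control range, and 1243, 1246 and 1158 TPM after 21 days. The lowest 21-day library lay just under the highest control library, so these groups overlapped. Means were 1092 ± 81.0, 987 ± 109, 1122 ± 26.8 and 1216 ± 50.1 TPM (SD, n = 3 each) in the control, 3-day, 14-day and 21-day groups. The order Tnp1, Tnp2, Prm3 held in all 12 libraries. Control replicate 1 was the lowest control library for all 3 genes.

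**Figure D1:**
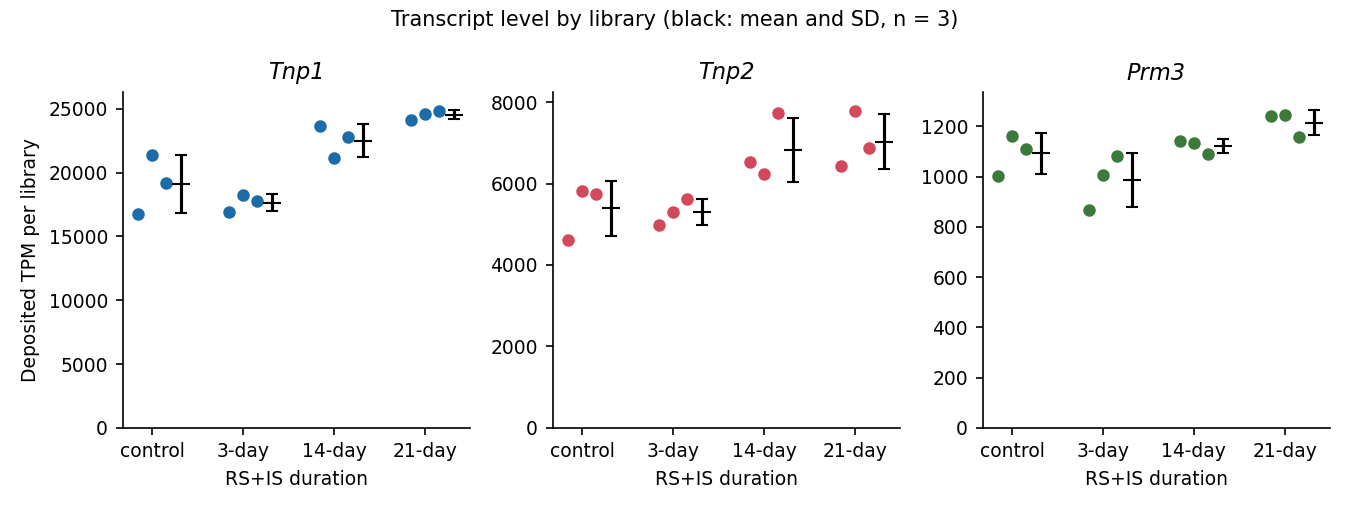
Deposited TPM of Tnp1, Tnp2 and Prm3 (vertical axes, each from 0) in the 4 groups. Points are libraries and black marks the mean ± SD of 3; Tnp2 after 14 and 21 days lay above every control library, while Prm3 after 14 days lay within the control range.

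The comparison with the control group asked whether mRNA of these genes differed after short or prolonged stress. Counts were compared as CPM (counts relative to the library total, with TMM scaling), which is not adjusted for length. After 3 days the 3 genes stood slightly under the control group, with log2 fold changes of -0.14 (SE 0.108) for Tnp1, -0.057 (SE 0.115) for Tnp2 and -0.18 (SE 0.0999) for Prm3. None passed an unadjusted p of 0.05 (0.231, 0.634 and 0.120, edgeR's quasi-likelihood test), and all 3 genes overlapped between groups. Of all features tested, 4.04% passed that p in either direction, 9.81% did not overlap between groups and 0 passed after Benjamini-Hochberg adjustment (39 by DESeq2). Control replicate 1 weighed on these values: without it the log2 fold changes were -0.25 for Tnp1, -0.18 for Tnp2 and -0.26 for Prm3, with unadjusted p of 0.00257, 0.0109 and 0.0222 and adjusted p of at least 0.477 in edgeR. With the replicate number as a block, Prm3 had an unadjusted p of 0.0258 in edgeR.

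After 14 days Tnp1 measured 2554 ± 201 CPM against 2044 ± 305 CPM in the control group, a log2 fold change of 0.32 (SE 0.119, unadjusted p = 0.0321, adjusted p = 0.375, edgeR). Tnp2 measured 1600 ± 222 CPM against 1215 ± 189 CPM, a log2 fold change of 0.39 (SE 0.141, unadjusted p = 0.0267, adjusted p = 0.370, edgeR). For both genes the lowest 14-day CPM exceeded the highest control CPM. For Tnp1 the margin was slight, 2322.3 against 2321.1 CPM, and its groups overlapped on the TPM scale. Higher CPM without overlap was seen in 11.2% of all features, and 7.2% were higher at an unadjusted p under 0.05, while 0 passed after adjustment (343 by DESeq2). Prm3 measured 224 ± 4.02 against 208 ± 22.0 CPM, a log2 fold change of 0.10 (SE 0.0817, unadjusted p = 0.253, edgeR), and its groups overlapped. Without control replicate 1 this value was 0.027. Neither unadjusted call held when single libraries were left out: without 14-day replicate 3 the edgeR p was 0.113 for Tnp1 and 0.111 for Tnp2, and without 14-day replicate 1 it was 0.126 and 0.0552, while Tnp1 without control replicate 3 gave 0.0735.

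After 21 days Tnp1 reached 2811 ± 184 CPM, a log2 fold change over the control group of 0.45 (SE 0.124, unadjusted p = 0.00807, adjusted p = 0.211, edgeR). Tnp2 reached 1675 ± 263 CPM, with a log2 fold change of 0.46 (SE 0.154, unadjusted p = 0.0212, adjusted p = 0.279, edgeR). Both genes again had no overlap with the control group, as had 12.7% of all features in this direction, and 8.47% of features were higher at an unadjusted p under 0.05. Without 21-day replicate 2 the unadjusted p for Tnp2 was 0.0652 in edgeR. Prm3 reached 246 ± 22.3 CPM, a log2 fold change of 0.23 (SE 0.101, unadjusted p = 0.0537, adjusted p = 0.357, edgeR), with overlap. Its unadjusted p was 0.0475 without control replicate 2, 0.0496 without 21-day replicate 3 and between 0.0184 and 0.111 under the settings that kept every library. The adjusted threshold was passed by 4 of 21113 features (0.0189%), none of them these genes. DESeq2, which called 736 of 27613 features, gave Tnp1 an adjusted p of 0.00823.

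With the 14-day and 21-day stress groups pooled as chronic stress (6 libraries against 3), Tnp1 was higher by a log2 fold change of 0.38 (SE 0.101, unadjusted p = 0.00359, adjusted p = 0.0808, edgeR). Tnp2 was higher by 0.42 (SE 0.128, unadjusted p = 0.00833, adjusted p = 0.114, edgeR). In both genes all 6 stressed libraries lay above all 3 controls in CPM, as in 7.06% of features, and 10.7% of features were higher at an unadjusted p under 0.05. For Tnp1 this again rested on 2322.3 against 2321.1 CPM, and its groups overlapped on the TPM scale. Prm3 differed by 0.16 (SE 0.0811, unadjusted p = 0.0702, adjusted p = 0.288, edgeR), and its unadjusted p was 0.0255 without control replicate 2 and 0.0235 with total count scaling. The adjusted threshold was passed by 351 of 21642 features (1.62%), again without these genes. DESeq2, which called 1653 of 27882 features, placed Tnp1 and Tnp2 past it, with adjusted p of 0.00387 and 0.0152 and unchanged fold size. In edgeR, Tnp1 passed it without control replicate 2 (adjusted p = 0.0474). Without control replicate 1 the log2 fold changes were 0.28 for Tnp1, 0.31 for Tnp2 and 0.095 for Prm3, with adjusted p of 0.180, 0.277 and 0.607 (edgeR).

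**Figure D2:**
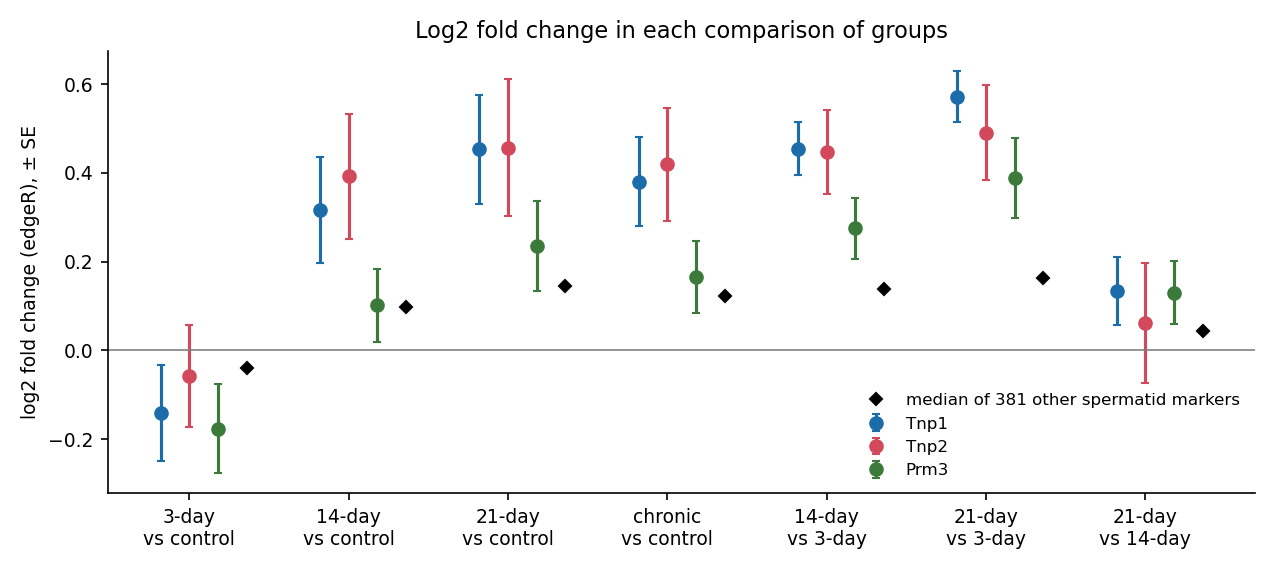
Log2 fold change of Tnp1, Tnp2 and Prm3 in each comparison of groups (edgeR, vertical axis), with whiskers of 1 SE and black diamonds for the median of the other spermatid markers. Tnp1 and Tnp2 lay at 0.38 and 0.42 in the chronic comparison, while the 21-day and 14-day groups differed by at most 0.13 for any of the 3 genes.

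The transcripts are short, and the deposited effective length, which depends on the fragment sizes of a library, moved with the groups. For Tnp1 it lay between 112 and 115 bases in control libraries, between 113 and 118 after 3 days, between 119 and 125 after 14 days and between 119 and 121 after 21 days. Features of up to 500 bases, which include Tnp1, had a median log2 fold change of 0.095 in the chronic comparison (900 features) and those of more than 500 and up to 800 bases, which include Tnp2 and Prm3, had 0.064 (1551 features), against -0.017 for those over 3000 bases (6404 features). With the effective length as an offset in the edgeR fit, an alternative chosen after seeing the data, the chronic log2 fold changes were 0.31 for Tnp1, 0.37 for Tnp2 and 0.10 for Prm3, with adjusted p of 0.128, 0.139 and 0.499. The 14-day value of Tnp1 was then 0.22, and its unadjusted p was 0.0914. On the TPM scale an exact two-sided permutation test of chronic against control gave p = 0.0476 for Tnp1, 0.0238 for Tnp2 and 0.214 for Prm3, where 0.0238 is the smallest value that 6 against 3 libraries can give.

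**Figure D3:**
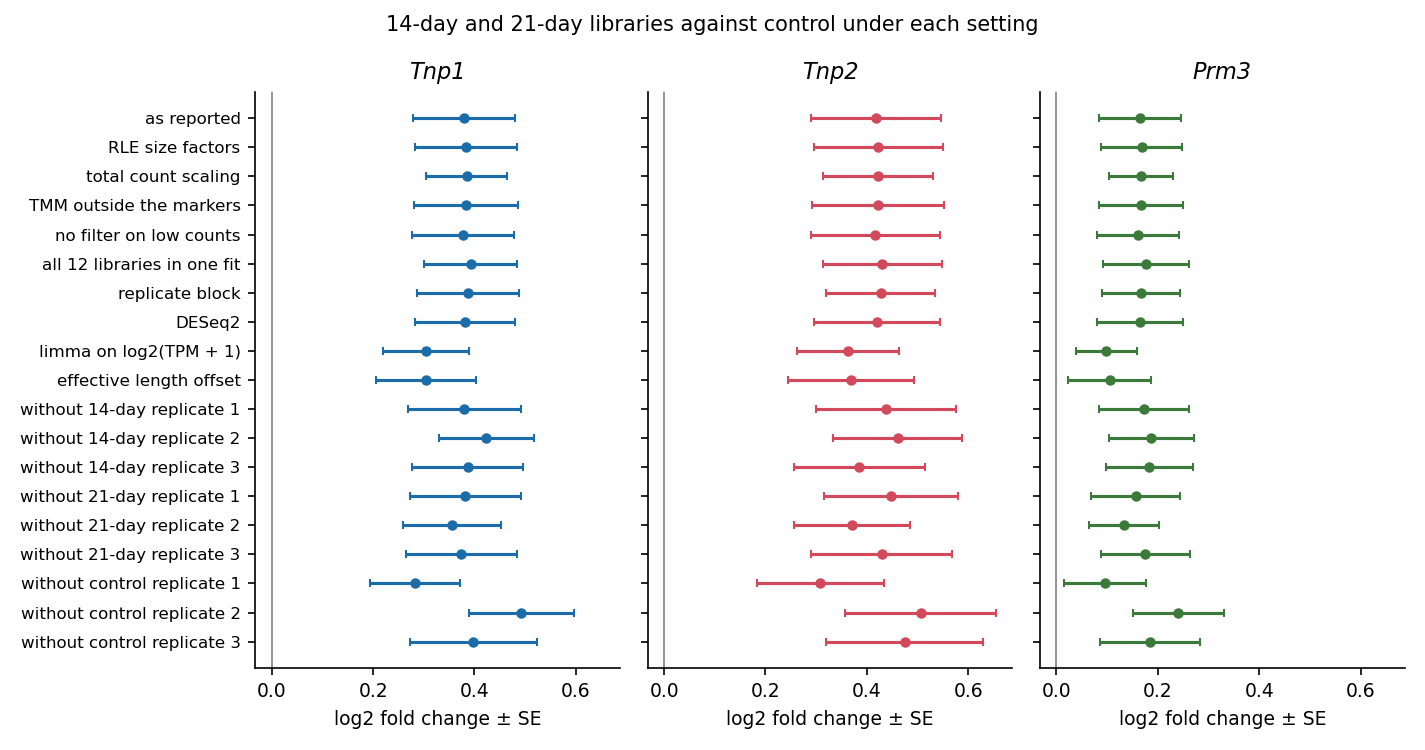
Log2 fold change in the chronic comparison under each way of processing (horizontal axis, the same in all panels), 1 panel per gene, from the main edgeR fit to each library left out. Tnp1 and Tnp2 stayed above 0 throughout, from 0.28 and 0.31 without control replicate 1 to 0.49 and 0.51 without control replicate 2.

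Set against the 3-day stress group in place of the control group, the 3 genes were higher after prolonged stress. In the 14-day group the log2 fold change over the 3-day group was 0.45 (SE 0.0592) for Tnp1, 0.45 (SE 0.0944) for Tnp2 and 0.27 (SE 0.0692) for Prm3. In the 21-day group it was 0.57 (SE 0.0581), 0.49 (SE 0.107) and 0.39 (SE 0.0901). No library of the 3-day group overlapped with the 14-day or 21-day group in CPM for any of the 3 genes, a pattern found for higher values in 11% of features at 14 days and 12.8% at 21 days. In edgeR the unadjusted p at 14 days was 8.96e-05 for Tnp1, 0.00184 for Tnp2 and 0.00481 for Prm3, and at 21 days 2.04e-05, 0.00233 and 0.00330, where 7.74% and 8.23% of features were higher under 0.05. The 381 other spermatid markers also stood higher, with median log2 fold changes of 0.14 at 14 days and 0.16 at 21 days. Of them 174 and 173 were higher at that p, and 4 and 2 lower, where 5.67% and 8.33% of all features were lower. None of Tnp1, Tnp2 and Prm3 passed the adjusted threshold in edgeR, with 0.131, 0.213 and 0.251 at 14 days and 0.0692, 0.167 and 0.171 at 21 days. At 21 days 1 of 21210 features (0.00471%) passed it and at 14 days 0 did, with 2835 at an unadjusted p under 0.05 and 415 by DESeq2. DESeq2 gave adjusted p of at most 0.0159 for each of these 6 values, where it called 415 of 27567 features at 14 days and 772 of 27703 at 21 days. These comparisons share the stressed libraries with those above and are no independent repeat of them.

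Between the 14-day and 21-day groups the log2 differences were 0.13 (SE 0.0773) for Tnp1, 0.061 (SE 0.135) for Tnp2 and 0.13 (SE 0.0707) for Prm3, higher at 21 days. Without 21-day replicate 3 the value for Prm3 was 0.20 (unadjusted p = 0.0269, edgeR). In CPM the groups overlapped for all 3 genes, and the adjusted p was 0.999 in edgeR for each. On the TPM scale every 21-day library lay above every 14-day library for Tnp1 and Prm3, while Tnp2 overlapped. How many of all features had no overlap on the TPM scale was not counted. The exact two-sided permutation p was 0.1 for Tnp1 and Prm3, the smallest that 3 against 3 libraries can give. In this comparison 1.7% of features were higher at an unadjusted p under 0.05, 4.14% were higher without overlap in CPM and 0 passed after adjustment (20 by DESeq2).

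Ratios within a library do not depend on how libraries are scaled and show whether the genes kept step with each other. For every count of Tnp1 there were on average 0.594 of Tnp2 in the control group, 0.630 after 3 days, 0.626 after 14 days and 0.593 after 21 days. The chronic and control groups overlapped in this ratio (exact two-sided permutation test, p = 0.786). Prm3 behaved differently beside Tnp1. Its count ratio to Tnp1 was 0.107, 0.0977 and 0.102 in the control libraries, against 0.0853, 0.0951 and 0.0841 after 14 days and 0.0909, 0.0894 and 0.0826 after 21 days. All 6 chronic libraries lay below all 3 controls, a difference of -0.22 on the log2 scale (exact permutation p = 0.0238, the smallest the design allows, adjusted p = 0.35 over the 21 ratio tests). With these group sizes the adjusted p over the 21 tests could not fall under 0.05 whatever the values. The 3-day libraries, at 0.0908, 0.0986 and 0.109, spanned the control values. The ratio of Prm3 to Tnp2 averaged 0.173, 0.158, 0.142 and 0.148 in the 4 groups in order of duration. Its chronic difference was -0.25 (exact permutation p = 0.0476, adjusted p = 0.35), with overlap. The 21-day replicate 1, at 0.1647, lay above control replicate 3, at 0.1640. The 3-day group already lay wholly below the control group, with a highest value of 0.1634 and a difference of -0.13 (exact permutation p = 0.1, adjusted p = 0.35).

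**Figure D4:**
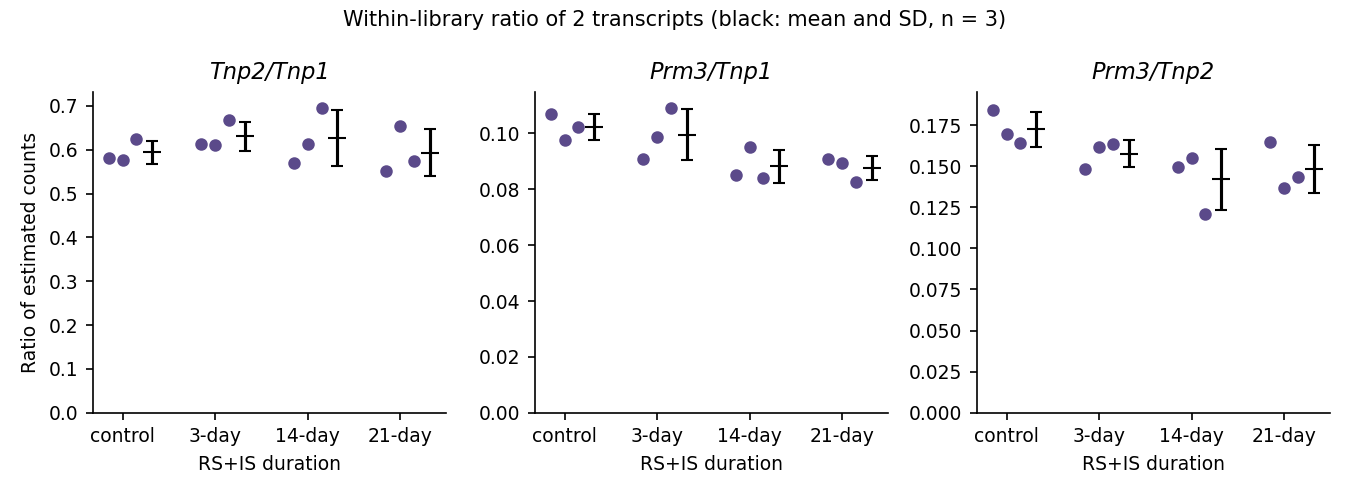
Within-library ratios of estimated counts (vertical axes, from 0) for Tnp2 to Tnp1, Prm3 to Tnp1 and Prm3 to Tnp2 in the 4 groups. Points are libraries and black marks the mean ± SD of 3; the 6 chronic values of Prm3 to Tnp1, between 0.0826 and 0.0951, lay under the control values, between 0.0977 and 0.107.

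Spermatid markers as a whole were somewhat higher under chronic stress, and Tnp1 and Tnp2 were near the top of that group. The 381 other spermatid markers had a median log2 fold change of 0.12 in the chronic comparison, against -0.0097 over all features, with 70 higher and 3 lower at an unadjusted p under 0.05 (10.7% and 9.68% of all features). Only 4 of the 381 had a higher log2 fold change than Tnp1 and 3 than Tnp2, while 114 exceeded Prm3. Among all features 14.7% lay above Tnp1, 13.3% above Tnp2 and 27.0% above Prm3. After 3 days most of these markers stood above the 3 genes, with 331 of the 381 above Tnp1, 220 above Tnp2 and 354 above Prm3.

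**Figure D5:**
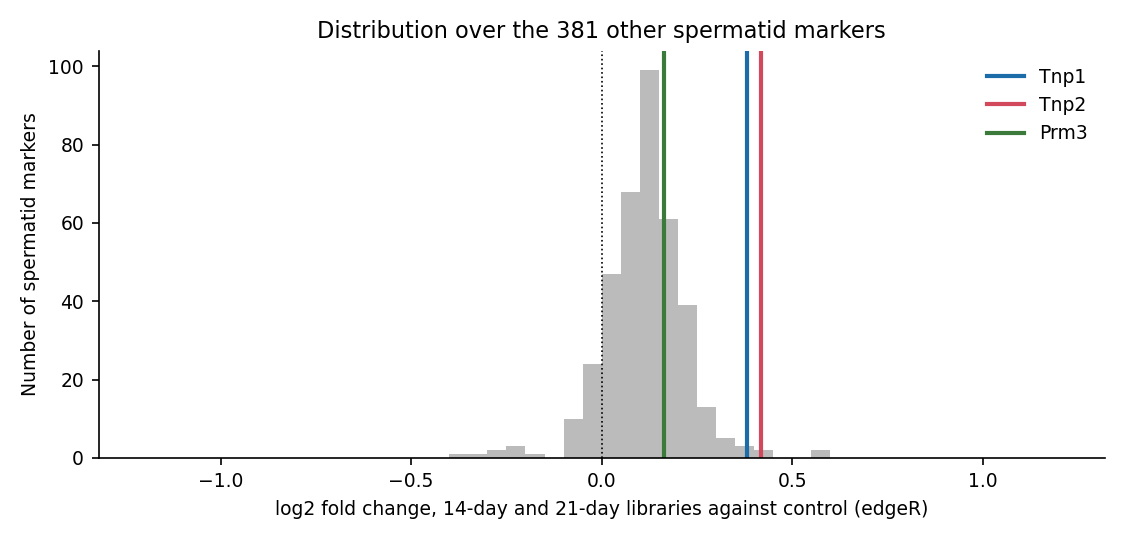
Distribution of log2 fold changes (edgeR, chronic against control, horizontal axis) over the other spermatid markers, as the number of markers per bin, with vertical lines at the 3 genes. Tnp1 at 0.38 and Tnp2 at 0.42 lay in the upper tail, and Prm3 at 0.16 lay near the median of 0.12.

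To compare a gene with these markers library by library, the median log2 CPM of the 381 was subtracted from the gene's log2 CPM. For Tnp1 this distance lay between 3.67 and 3.83 in the control group and between 3.92 and 4.09 in the 6 chronic libraries, a mean difference of 0.26. For Tnp2 it lay between 2.89 and 3.10 in the control group and between 3.21 and 3.47 in the chronic libraries, a mean difference of 0.30. The groups did not overlap for either gene (exact two-sided permutation p = 0.0238 for each, the smallest possible, adjusted p = 0.191 over the 21 tests of this kind). Here too the adjusted p could not fall under 0.05 at these group sizes. Prm3 differed by 0.042 (exact permutation p = 0.5), with overlap. When only the 32 spermatid markers under 800 bases with a single transcript served as reference, an alternative chosen after seeing the data, the differences were 0.33 for Tnp1, 0.36 for Tnp2 and 0.11 for Prm3. These were the largest values among the alternatives, which also took the mean of the markers or TPM. The smallest were 0.18 for Tnp1, 0.23 for Tnp2 and -0.030 for Prm3. For Tnp1 the exact permutation p was then up to 0.0476.

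Other chromatin genes among the markers were compared as a list of 17, of which the study's table gives 11 as spermatid and 6 as spermatocyte markers. In the chronic comparison 2 of 17 were higher at an unadjusted p under 0.05, a share near the 10.7% of all features. At that p 0 of 17 were lower, against 9.68% of all features. None of the 17 passed after adjustment in edgeR. The median log2 fold change was 0.087 over the list, 0.16 over the 11 spermatid markers, all of them above 0, and -0.054 over the 6 spermatocyte markers, 5 of them below 0. The members that were higher were Tssk6, a testis-specific serine kinase required for chromatin condensation (0.37, SE 0.118, unadjusted p = 0.00972, adjusted p = 0.121, edgeR), and Ccer1, a nuclear protein of spermatids that acts in the exchange of histones (0.17, SE 0.0463, unadjusted p = 0.00414, adjusted p = 0.0848, edgeR). Pwwp2b had the next largest value, 0.25 (unadjusted p = 0.0545, edgeR). Tssk6 was also lower after 3 days, by -0.27 (unadjusted p = 0.0180, adjusted p = 0.985, edgeR), without overlap, where 2.01% of features were lower at that p and 4.35% did not overlap in this direction. Hils1, a spermatid linker histone variant, was at 0.056 (unadjusted p = 0.520, edgeR).

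Of 12 genes of germ cell transcription and mRNA storage, 0 were past an unadjusted p of 0.05 in either direction in the chronic comparison. Among all features the share past it was 20.3%. The 12 genes had a median log2 fold change of -0.024. The 5 that the table gives as spermatid markers were all above 0, with a median of 0.086, and 6 of the 7 spermatocyte markers were below 0, with a median of -0.069. The largest values were 0.28 for Creb3l4, a transcription factor of the CREB family, 0.23 for Pabpc2, a poly(A) binding protein, and 0.14 for Paip2, a regulator of poly(A) binding protein, with unadjusted p of 0.162, 0.140 and 0.154 in edgeR. Crem, named here for its known role and not by the rule, was at 0.0067 (unadjusted p = 0.904, edgeR).

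Of 11 late haploid genes of sperm structure and metabolism, 0 were past an unadjusted p of 0.05 in the chronic comparison. Among all features 20.3% were past it in either direction. The 11 genes had a median log2 fold change of 0.12, with 10 of 11 above 0. The largest were Spem1, needed for shaping the sperm head and neck (0.20, unadjusted p = 0.0718, edgeR), Tssk3, a testis-specific kinase (0.19, unadjusted p = 0.0803, edgeR), and Oaz3, an antizyme of haploid germ cells that restrains polyamine synthesis (0.19, unadjusted p = 0.0734, edgeR). Against the 3-day group, 10 of 11 were higher at an unadjusted p under 0.05 in the 14-day group (7.74% of all features), where the median log2 fold change was 0.20. The 21-day group gave 10 of 11 as well (8.23% of all features), with a median of 0.31. Of the 381 other spermatid markers, which include these 11 genes, 174 were higher and 4 lower at that p after 14 days. After 21 days 173 were higher and 2 lower. Among all features 5.67% and 8.33% were lower. None of the 381 markers passed the adjusted threshold in edgeR. The 3 genes themselves were higher by 0.27 to 0.57 in these comparisons.

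Markers of earlier germ cells were counted beside these. In the chronic comparison, 17 of 179 spermatocyte markers were lower at an unadjusted p under 0.05, a share near the 9.68% of all features, and 0 were higher (10.7% of all features), with a median log2 fold change of -0.053. Of 12 spermatogonia markers 8 were lower, against the same 9.68%, and 0 higher, with a median of -0.30, and their part in the result for Tnp1 and Tnp2 was not tested. The markers past the adjusted threshold in edgeR were 5 of the 381 spermatid markers, a share near the 1.31% of all features that were higher, and the spermatogonia marker Ccne2, a cyclin, which was lower (-0.32, adjusted p = 0.0416). The spermatid markers were Cdkn1c (0.58), Ccdc27 (0.55), Fam53c (0.42), Got1l1 (0.42) and Ttll9 (0.30).

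The markers whose log2 CPM ran most like each gene over the 12 libraries were found by Pearson's r, as a description over libraries that share groups and scaling. Tnp1 and Tnp2 had r = 0.937 with each other, Tnp1 and Prm3 0.900, and Tnp2 and Prm3 0.855, where the median over the 574 other markers was 0.572 for Tnp1, 0.611 for Tnp2 and 0.568 for Prm3. The 95th percentile was 0.931, 0.927 and 0.918, so both values of Prm3 lay below it. After removing group means the 3 pairs stood at 0.839, 0.729 and 0.725, and many other markers stood higher. Among the 574 markers beside Tnp1, Tnp2 then ranked 130 and Prm3 229. Beside Tnp2, Tnp1 ranked 109 and Prm3 223, and beside Prm3, Tnp1 ranked 151 and Tnp2 156. Most like Tnp1 were St6galnac2 (0.975), Spz1 (0.974), Fam71d (0.966), Dnajc5b (0.956) and Oaz3 (0.953). Tnp2 ran most like Ube2g2 (0.987), Sox5 (0.969), Spag4 (0.964), Otub2 (0.964) and Sppl2c (0.963). For Prm3 the leading markers were Oaz3 (0.965), Spatc1 (0.959), Nbr1 (0.953), Acsl1 (0.952) and Lipe (0.948). Oaz3 was the marker that stood in the lists of both Tnp1 and Prm3. The lists changed with the measure: 3, 2 and 1 of the 5 for Tnp1, Tnp2 and Prm3 were also among the first 5 by Spearman's rho, ties included, and 2, 2 and 1 after removing group means.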

How the data were processed

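Total RNA of rat testis was depleted of ribosomal RNA and sequenced as directional libraries. The deposited tables list 31715 Ensembl transcripts per library with estimated counts, lengths, effective lengths and TPM. For Tnp1, Tnp2 and Prm3 the authors' TPM equals the estimated count over the effective length, brought to a common total, within 0.000562%. For Stra8, counted among the spermatogonia markers, it deviates by up to 11.2%, by over 1% in 5 libraries. The submitters' processing notes name Trimmomatic, HISAT2, HTSeq and the build Rnor_6.0, with versions not given in the sources used here. The estimated counts are not all whole, and their layout is that of a transcript quantifier that these sources do not name. Transcripts carry no gene names. The markers of the study's table were found as the transcript or run of up to 15 neighbouring transcripts whose counts add up to the table's counts in all 12 libraries within 1 count. Of 578 markers, 575 matched, and their transcripts were summed.

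Estimated counts were rounded. Each comparison was fitted on its own libraries with edgeR 4.0.16 in R 4.3.3 (filterByExpr, TMM, quasi-likelihood test), with Benjamini-Hochberg adjustment over all features tested and a threshold of 0.05. Features under 0.05 without adjustment were also counted, the cut drawn in the study's plot of its markers. The SE is the log2 fold change divided by the square root of the F statistic. CPM used TMM factors, and log2 CPM a prior count of 2. Ratios and distances to the other spermatid markers were tested by exact two-sided permutation, which cannot go below 0.1 with 3 against 3 libraries or 0.0238 with 6 against 3. Benjamini-Hochberg adjustment over the 21 tests of each kind therefore could not give a value under 0.05. The scripts were tested on simulated data.

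The genes, the lists and the tests were chosen with earlier results of these data known. Named genes are the Tnp and Prm markers, the members of each list past an unadjusted p of 0.05 in the chronic comparison or else up to 3 of largest change, and the 5 markers most like each gene; of the whole marker classes, those past the adjusted threshold among spermatid markers were named after their values were seen. Alternatives were RLE and total count scaling, TMM factors from features outside the markers, no filter on low counts, 1 fit over all 12 libraries, a block for the replicate number, DESeq2 1.42.0, limma 3.58.1 on log2(TPM + 1) and each library left out. Promoters came from RefSeq on GRCr8, where all 3 genes matched by symbol. Coordinates of Rnor_6.0 and protein sequences were not used here. Exact tests used SciPy 1.17.1 and NumPy 2.4.6, and tables were joined in pandas 2.3.3 under Python 3.11.15.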

Additional observations from a re-analysis of the deposited data

Results flagged for a closer look

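Tnp1 and Prm3 were picked out because all 3 libraries of the 3-day group lay below the control mean while all 3 of a longer group lay above it. For Tnp1 the log2 difference was 0.45 between the 14-day and 3-day groups and 0.57 between the 21-day and 3-day groups. For Prm3 it was 0.27 and 0.39. The pattern that picked these values already sets the groups apart, so the p-values of the comparisons between stressed groups are no separate test of it, and the difference between the effects against control was not tested otherwise.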

How the results depend on the processing

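Among 189 log2 fold changes of Tnp1, Tnp2 and Prm3 recomputed under settings that kept every library, 177 kept their direction and their side of the adjusted threshold, 12 newly passed it and 0 changed sign. With DESeq2 those that newly passed were Tnp1 at 21 days (0.45) and in the chronic comparison (0.38), Tnp2 in the chronic comparison (0.42), and all 3 genes against the 3-day group, Prm3 at 0.28 and 0.41, Tnp1 at 0.46 and 0.59 and Tnp2 at 0.45 and 0.51 after 14 and 21 days. With all 12 libraries in a single fit, Tnp1 passed at 21 days (0.46) and in the chronic comparison (0.39), and with total count scaling Tnp1 passed in the 21-day against the 3-day group (0.56). The number of features past the adjusted threshold varied more: in the chronic comparison 351 in the main fit, 1653 with DESeq2, 882 with all libraries, 248 without a filter, 220 with limma on TPM and 17 with the replicate block, and between 4 and 547 with a library left out. At 21 days it was 4 in the main fit, 736 with DESeq2, 667 with all libraries and 0 with the block. At 14 days it was 0 in the main fit, 343 with DESeq2 and 12 with all libraries, and at 3 days 0, 39 and 1. Against the 3-day group DESeq2 called 415 features at 14 days and 772 at 21 days, and the fit of all libraries 0 and 30. Between 21 and 14 days DESeq2 called 20. Features tested numbered between 21058 and 21642 in the main fits, between 27444 and 27882 with DESeq2 and 21999 in the fit of all libraries. In the chronic comparison they numbered 28210 without a filter and 18776 with limma.

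Replicate numbers are shared between groups, but deviations of same-numbered libraries correlated between -0.12 and 0.25, and they were not treated as paired. With a replicate block the chronic log2 fold changes were 0.39 for Tnp1, 0.43 for Tnp2 and 0.17 for Prm3, with edgeR adjusted p of 0.107, 0.103 and 0.262.

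With TPM in place of counts, the log2 difference of the Tnp2 to Tnp1 ratio changed sign at 21 days against control (0.018) and at 14 against 3 days (0.0092). The 3-day difference of Tnp2 from the other spermatid markers, near 0, changed sign with their mean (-0.013), with TPM (-0.059) and with short reference markers (-0.0062), and its 21-day against 14-day difference with short markers (-0.039). That of Prm3 changed sign on TPM at 14 days (-0.080) and in the chronic comparison (-0.030).

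With 1 library left out in turn, log2 fold changes ranged from -0.18 to 0.015 for Tnp2 at 3 days, from -0.071 to 0.19 for Tnp2 between 21 and 14 days, from 0.28 to 0.49 for Tnp1 in the chronic comparison, and for Tnp1 against 3 days from 0.42 to 0.52 at 14 days and from 0.53 to 0.63 at 21 days. Tnp1 passed the adjusted threshold in edgeR without control replicate 2 in the chronic comparison (0.0474), without 14-day replicate 2 against 3 days (0.0355) and without 21-day replicate 2 against 3 days (0.0299). The log2 ratio of Tnp2 to Tnp1 ranged from -0.0068 to 0.14 at 14 days, from -0.076 to 0.046 at 21 days, from -0.0054 to 0.070 in the chronic comparison, from -0.092 to 0.052 between 14 and 3 days and from -0.15 to 0.0024 between 21 and 14 days. That of Prm3 to Tnp1 ranged from -0.11 to 0.019 at 3 days, from -0.25 to -0.19 in the chronic comparison and from -0.041 to 0.048 between 21 and 14 days, and that of Prm3 to Tnp2 from -0.29 to -0.20 in the chronic comparison and from -0.043 to 0.14 between 21 and 14 days. Relative to the other spermatid markers, the chronic difference ranged from 0.22 to 0.30 for Tnp1 and from 0.24 to 0.34 for Tnp2, the 3-day difference of Tnp2 from -0.050 to 0.058, its difference between 21 and 14 days from -0.060 to 0.095, and the 14-day difference of Prm3 from -0.027 to 0.030. Without a control library the exact test of 6 against 2 cannot go below 0.0714, so a lost call there says nothing of stability. The cause of these changes was not tested.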
